A study of Mus musculus with 12 samples.

Results

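MHC class I presentation genes were followed after stroke in cells sorted as astrocytes from mouse cortex. The set holds 10 genes chosen by symbol, namely the heavy chains H2-K1, H2-D1 and H2-T23, the light chain B2m, the peptide transporter Tap1 and Tap2, its partner Tapbp, the immunoproteasome subunits Psmb8 and Psmb9, and the regulator Nlrc5. All 10 were among the 15774 genes of the count table, and all 10 passed the filter on low counts that left 15635 genes for testing. Total RNA of the sorted cells came from C57BL/6J wild-type mice. The 6 groups, with n = 2 libraries each, were sham and 1, 3, 7, 21 and 60 days after stroke. Stroke meant a lasting ligature of the distal middle cerebral artery plus a 7 min closure of both common carotid arteries, and sham mice received a skull surface lesion alone. The marker used to sort the cells, the age and sex of the mice, the time of sham collection and whether a library holds 1 animal or a pool are not given in the sources used here. The p-values therefore measure the spread between these libraries, which may be technical.

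MHC class I molecules carry short peptides from inside the cell to its surface, where CD8+ T cells and natural killer cells read them. The immunoproteasome cuts proteins into peptides, the Tap1 and Tap2 transporter pumps them into the endoplasmic reticulum, and tapasin helps load them onto a heavy chain paired with beta-2-microglobulin. Resting brain cells express little of this pathway, and interferons are its best known inducers.

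The 12 libraries fell into 2 depth classes along the replicate number, with 13006008 to 16575045 counts in replicate 1 and 97056596 to 156128922 counts in replicate 2. The astrocyte label was checked against 15 marker genes, none of which had 0 counts in any library. Their summed level was 8485 to 9660 CPM (counts scaled to the library total) in sham, 4583 to 14040 CPM on day 1, 3676 to 8964 CPM on day 3, 1608 to 2221 CPM on day 7, 3020 to 3457 CPM on day 21 and 3235 to 3473 CPM on day 60. From day 7 on it lay below both sham libraries, and from day 3 on below the summed level of 12 fibroblast markers in the same library. In sham, oligodendrocyte markers, at 9949 to 10360 CPM, summed higher than the astrocyte markers. Sums over different lists do not give the shares of cell types. The share of astrocytes in the sorted cells is thus not known in any group, sham included, and their label is uncertain. Markers of fibroblasts and macrophages summed higher than in sham at every stroke time, and those of microglia from day 3 on, with the ranges given beside the other marker lists. In bulk RNA a change in the share of a cell type and a change in RNA per cell cannot be told apart.

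Class I genes were higher after stroke than in sham, and on day 1 the called members already spanned proteasome, transporter, tapasin and heavy chain, those on days 7, 21 and 60 being all but H2-D1. A gene was called at an adjusted p under 0.05 in edgeR's quasi-likelihood test, with Benjamini-Hochberg adjustment over all genes tested. On day 1, 5 of the 10 members were called higher, where 16.7% of all genes tested were. On day 3, 6 of 10 were called higher against 18.0% of all genes. On day 7, 9 of 10 were called higher against 23.2% of all genes, on day 21 9 of 10 against 17.8%, and on day 60 9 of 10 against 16.8%. No member was called lower at any of these times, where 13.9% to 19.8% of all genes were.

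The median log2 fold change of the members was 1.89 on day 1, 1.89 on day 3, 2.50 on day 7, 3.24 on day 21 and 3.40 on day 60. The corresponding medians over all genes tested were 0.06, 0.16, 0.13, 0.07 and 0.01 on the same scale. The members took 0.638% and 0.800% of all counts in the day 60 libraries, against 0.0637% and 0.0856% in the sham libraries. With the replicate number added to the fit as a block, 8 members were called higher on day 1 (23.4% of all genes tested) and 10 on each of days 3 (24.7%), 7 (29.3%), 21 (24.5%) and 60 (22.6%). The members outside the calls without the block were H2-D1 at all 5 times, H2-T23, B2m, Psmb9 and Nlrc5 on day 1, and H2-K1, H2-T23 and Nlrc5 on day 3.

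**Figure D1:**
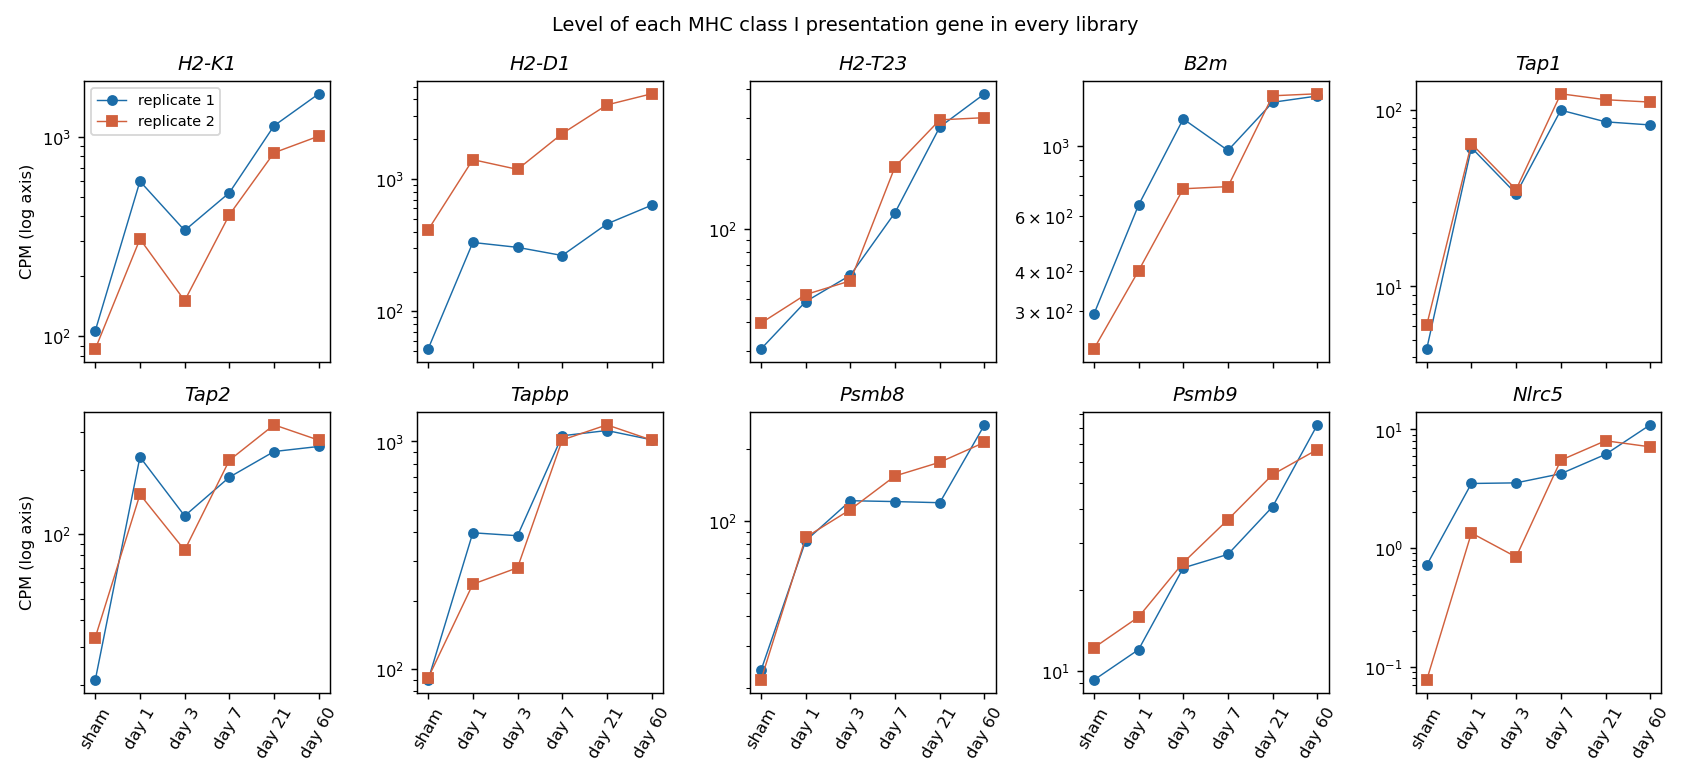
Level of each of the 10 members in every library, in CPM on a log axis, from sham through day 60, with circles for replicate 1 and squares for replicate 2 and lines joining libraries of the same replicate number. Both lines climb after sham in each panel, and in the H2-D1 panel replicate 2 lies far above replicate 1 at every time.

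The classical heavy chain H2-K1 presents peptides to CD8+ T cells and lies at chr17:33996017-34000347 on the minus strand of mm10. Its level was 107 and 86.5 CPM in sham, 599 and 308 CPM on day 1, 340 and 151 CPM on day 3, 525 and 407 CPM on day 7, 1136 and 833 CPM on day 21, and 1643 and 1008 CPM on day 60. Both libraries of each stroke time lay above both sham libraries, and the highest value of the 12 libraries was in a day 60 library. H2-K1 rose on day 1 by a log2 fold change of 2.23 ± 0.51 (SE, adjusted p = 0.0105), on day 7 by 2.27 ± 0.51 (adjusted p = 0.00544), on day 21 by 3.35 ± 0.54 (adjusted p = 0.00151) and on day 60 by 3.78 ± 0.55 (adjusted p = 0.00099). On day 3 the change was 1.34 ± 0.50 with an adjusted p of 0.0638, and with the replicate block it was 1.25 ± 0.29 with an adjusted p of 0.00645. The day 1 call ended without sham replicate 1 (adjusted p = 0.0543), sham replicate 2 (0.0705) or day 1 replicate 1 (0.0731), and the day 3 change was called without day 3 replicate 2 (0.0325).

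H2-T23 encodes the heavy chain of Qa-1, a non-classical class I molecule read by inhibitory receptors of natural killer cells, and lies at chr17:36029773-36032855 on the minus strand. Its level was 30.6 and 39.5 CPM in sham, 48.9 and 52.4 CPM on day 1, 63.4 and 60 CPM on day 3, 118 and 186 CPM on day 7, 274 and 294 CPM on day 21, and 381 and 301 CPM on day 60. The groups were ordered in time, with both libraries of each stroke time above both libraries of the time before. H2-T23 rose on day 7 by a log2 fold change of 2.11 ± 0.34 (adjusted p = 0.00089), on day 21 by 3.02 ± 0.35 (adjusted p = 0.000287) and on day 60 by 3.28 ± 0.36 (adjusted p = 0.000208). On day 1 the change of 0.53 ± 0.33 was not called (adjusted p = 0.241). On day 3 it was 0.82 ± 0.33 (adjusted p = 0.083), and 0.82 ± 0.28 with the replicate block (adjusted p = 0.0342).

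H2-D1, the other classical heavy chain, lies at chr17:35262730-35267499 on the plus strand, and its replicates differed several-fold in every group. In replicate 1 its level was 52.0 CPM in sham, 332 CPM on day 1, 305 CPM on day 3, 264.5 CPM on day 7, 458 CPM on day 21 and 634.5 CPM on day 60. In replicate 2 it was 413 CPM in sham, 1403 CPM on day 1, 1184 CPM on day 3, 2207 CPM on day 7, 3636 CPM on day 21 and 4412 CPM on day 60. Stroke and sham overlapped on days 1, 3 and 7, because sham replicate 2 lay above replicate 1 of each of these times, and did not overlap on days 21 and 60. The log2 fold changes were 1.90 ± 1.45 on day 1, 1.68 ± 1.44 on day 3, 2.41 ± 1.47 on day 7, 3.14 ± 1.52 on day 21 and 3.44 ± 1.54 on day 60, and none was called (adjusted p from 0.114 to 0.396). Within replicate 1 the level was 5.09 to 12.2 times that of sham over the 5 times, and within replicate 2 it was 2.87 to 10.7 times that of sham. With the replicate block all 5 changes were called, with 2.24 ± 0.36 on day 1 (adjusted p = 0.00109), 2.06 ± 0.36 on day 3 (0.00131), 2.39 ± 0.36 on day 7 (0.000347), 3.14 ± 0.37 on day 21 (0.000133) and 3.50 ± 0.38 on day 60 (8.26e-05).

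Other genes of the H2 region also differed widely between the replicates. Replicate 2 divided by replicate 1, in CPM, was 3.88 to 8.34 for H2-D1 over the 6 groups, whereas it was 0.445 to 0.810 for H2-K1 and 0.790 to 1.58 for H2-T23. H2-Q1 had 41151 to 743893 counts in replicate 2 libraries and 0 to 17 counts in replicate 1 libraries. H2-Q10 had 88 to 151036 counts in replicate 2 libraries and 5 to 149 in replicate 1 libraries, and H2-T10 had 2268 to 14783 and 13 to 71 counts in the same order. The rows of H2-Q2, H2-Q4 and H2-Bl also held far fewer counts in replicate 1, at most 145, than in replicate 2 of the stroke times, at least 7600. Of the 50-base stretches of the annotated H2-D1 transcripts, 12.8% occur in another gene, H2-Q1 and H2-K1 being the largest sharers with 152 and 141 stretches. For H2-K1 the share was 9.63% and for H2-T23 14.5%. The levels of H2-D1 and of these other genes are uncertain to the extent that their reads match several genes. How such reads were counted, and whether alike in all libraries, is not given in the sources used here. Group means of H2-D1, and its fold changes with or without the block, may therefore join values counted in different ways. H2-K2, H2-Q6, H2-Q7, H2-T3 and H2-T22 were not analysed here.

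**Figure D2:**
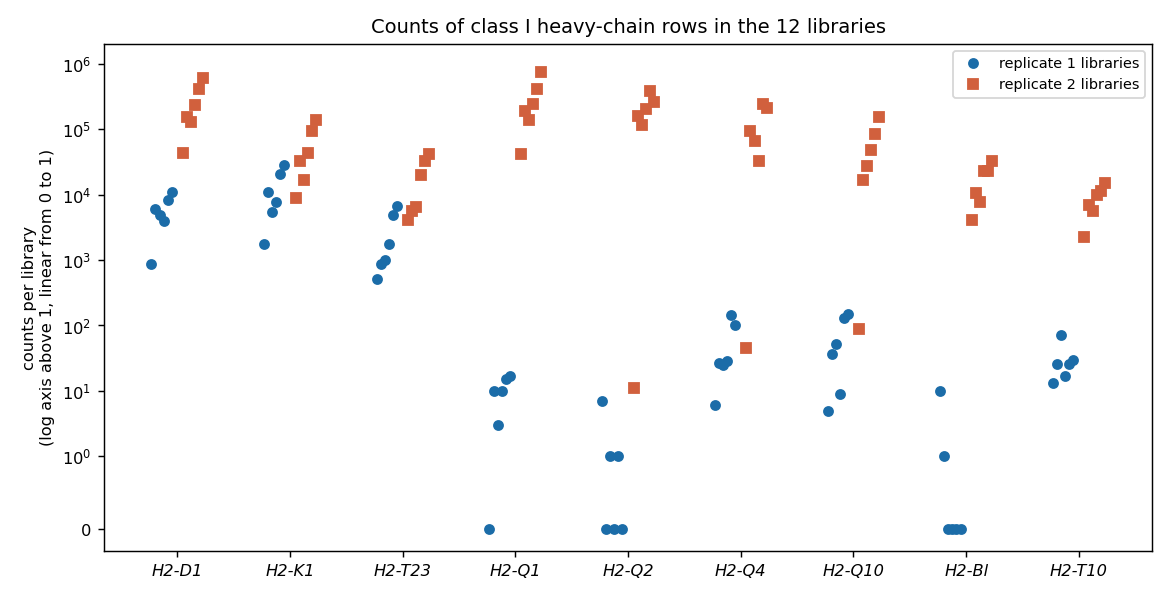
Counts per library of the 3 heavy-chain members and of 6 related H2 genes, on a log axis above 1, with circles for replicate 1 and squares for replicate 2, each running from sham at the left to day 60 at the right. H2-Q1, with 0 to 17 counts in replicate 1 and 41151 to 743893 in replicate 2, stands against H2-K1, whose counts in the 2 replicates overlap.

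B2m encodes beta-2-microglobulin, the light chain that every classical heavy chain needs to reach the surface, and lies outside the MHC at chr2:122147686-122153083 on the plus strand. Its level was 292 and 227 CPM in sham, 649 and 402 CPM on day 1, 1217 and 731 CPM on day 3, 967 and 743 CPM on day 7, 1374 and 1441 CPM on day 21, and 1439 and 1462 CPM on day 60. All 10 stroke libraries lay above both sham libraries, and the 4 libraries of days 21 and 60 lay above all others. B2m rose on day 3 by a log2 fold change of 1.91 ± 0.41 (adjusted p = 0.00649), on day 7 by 1.72 ± 0.40 (adjusted p = 0.00659), on day 21 by 2.44 ± 0.41 (adjusted p = 0.00204) and on day 60 by 2.48 ± 0.41 (adjusted p = 0.00214). On day 1 it was 1.02 ± 0.40 (adjusted p = 0.0774), and 1.0 ± 0.29 with the replicate block (adjusted p = 0.0196). Without sham replicate 2 the calls on day 3 (adjusted p = 0.0542) and day 7 (0.0545) ended. No 50-base stretch of the B2m transcripts occurs in another gene.

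The promoters of H2-K1, H2-D1 and B2m are shown because they encode the chains of the classical molecules, and such promoters are known to carry related elements. Each stretch is the 250 bases before the RefSeq start of the gene (GRCm38.p6), read 5′ to 3′ on the strand of the gene, at chr17:34000348-34000597 for H2-K1, chr17:35262844-35263093 for H2-D1 and chr2:122147437-122147686 for B2m. Capitals mark matches on either strand to AANNGAAA, the core bound by interferon regulatory factors, to the kappa B sequence GGGGATTCCCC, and to TGACG followed after 20 bases by ATTGG, the X2 and Y elements to which the Nlrc5 assembly binds.
H2-K1: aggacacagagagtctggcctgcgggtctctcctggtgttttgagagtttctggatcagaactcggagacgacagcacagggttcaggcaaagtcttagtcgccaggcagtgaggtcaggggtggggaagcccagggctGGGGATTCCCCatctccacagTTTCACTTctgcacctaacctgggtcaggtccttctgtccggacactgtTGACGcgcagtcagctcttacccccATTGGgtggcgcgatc
H2-D1: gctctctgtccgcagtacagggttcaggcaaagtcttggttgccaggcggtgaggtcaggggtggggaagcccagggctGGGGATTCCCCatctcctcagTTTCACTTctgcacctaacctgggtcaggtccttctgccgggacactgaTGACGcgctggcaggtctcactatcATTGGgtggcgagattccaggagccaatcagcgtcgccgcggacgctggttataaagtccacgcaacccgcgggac
B2m: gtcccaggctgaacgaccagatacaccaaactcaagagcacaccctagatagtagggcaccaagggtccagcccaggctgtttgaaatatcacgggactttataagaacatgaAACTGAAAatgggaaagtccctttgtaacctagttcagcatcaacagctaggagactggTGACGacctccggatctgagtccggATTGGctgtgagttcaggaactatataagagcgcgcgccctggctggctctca
The interferon regulatory core lies 90 to 83 bases before the start in H2-K1, 150 to 143 in H2-D1 and 137 to 130 in B2m. The X2 and Y pair lies 41 to 12, 101 to 72 and 78 to 49 bases before the start in the same genes, and H2-K1 and H2-D1 also hold the kappa B match. The H2-D1 stretch lies inside the gene as placed by the GENCODE annotation, which begins it upstream at 35262730. The H2-D1 distances therefore hold for the RefSeq start only. The aligned bases of the H2-K1 and H2-D1 promoters were 89.5% identical, 170 matching and 20 not. A further 120 positions of the alignment were gaps and are left out of that share.

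Promoter windows of 300 bases, 250 before and 50 after the start, were matched for 8 of the 10 members, Nlrc5 and Tap2 being the others. Among these 8, AANNGAAA occurred in B2m, H2-D1, H2-K1 and H2-T23, and in 23.9% of all 32851 windows. The X2 and Y spacing occurred in B2m, H2-D1 and H2-K1, and in 31 windows of all (0.0944%), and GGGGATTCCCC in H2-D1 and H2-K1, and in 10 windows of all (0.0304%). The plain CCAAT box, the Y element read on the other strand, occurred in 7 of the 8, Psmb8 being the exception, and in 37.4% of all windows. The motifs and the spacing were chosen with these sequences in view, so these counts describe them and test nothing.

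**Figure D3:**
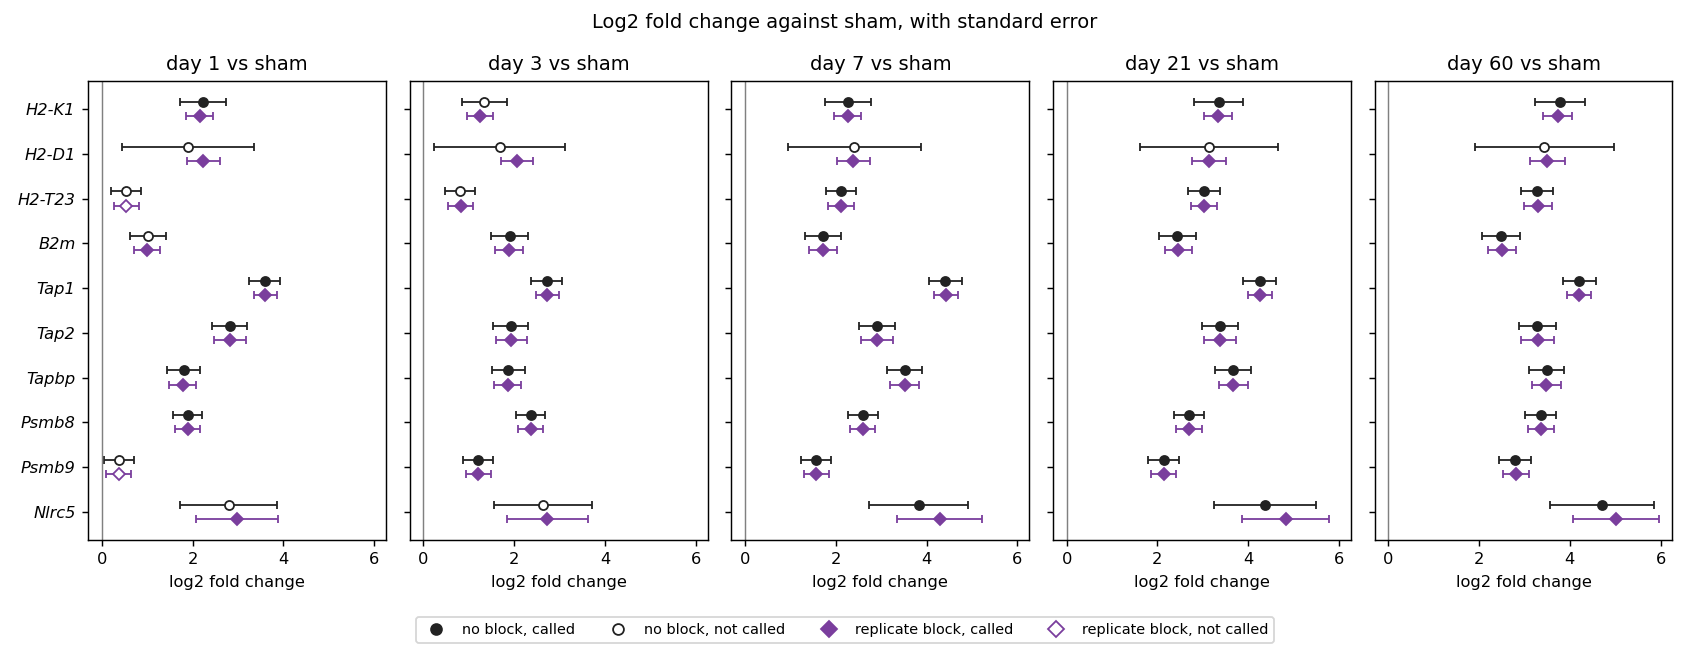
Log2 fold change of each member against sham at each time, with standard error bars, as circles for the fit without a block and diamonds for the fit with the replicate block, filled where the adjusted p was under 0.05. All changes in both fits lie above 0, and H2-D1 has wide bars without the block and narrow ones with it.

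Tap1 and Tap2 form the transporter that moves peptides into the endoplasmic reticulum, and Tap1 had the largest fold change of the 10 members on days 1, 3 and 7 in the fit without the block. Tap1 lies at chr17:34187553-34197225 on the plus strand. Its level was 4.42 and 6.03 CPM in sham, 61.3 and 64.6 CPM on day 1, 33.5 and 35.5 CPM on day 3, 100 and 124 CPM on day 7, 85.9 and 115 CPM on day 21, and 82.4 and 111 CPM on day 60. Every stroke library lay far above both sham libraries, day 3 was lowest among the stroke times, and days 7, 21 and 60 overlapped one another. Tap1 rose by log2 fold changes of 3.58 ± 0.35 on day 1 (adjusted p = 0.000461), 2.72 ± 0.34 on day 3 (0.000543), 4.42 ± 0.36 on day 7 (4.35e-05), 4.26 ± 0.36 on day 21 (6.90e-05) and 4.21 ± 0.36 on day 60 (7.45e-05). These 5 calls held without any 1 library. Exons of Tap1 and Psmb9 overlap on opposite strands, and the pair shares 163 stretches of 50 bases. These are 4.19% of the stretches of Psmb9, and most of the 3.33% of Tap1 stretches that occur in another gene. Some reads of the pair thus cannot be told apart if strand was not used in counting, which is not given.

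Tap2, at chr17:34203527-34216321 on the plus strand, had 21.1 and 33.2 CPM in sham, 229 and 153 CPM on day 1, 122 and 84.5 CPM on day 3, 184 and 221 CPM on day 7, 243 and 323 CPM on day 21, and 256 and 274 CPM on day 60. As for Tap1, no stroke library came near sham and day 3 was the lowest stroke time. Tap2 rose by log2 fold changes of 2.81 ± 0.39 on day 1 (adjusted p = 0.00167), 1.93 ± 0.38 on day 3 (0.00472), 2.90 ± 0.40 on day 7 (0.000392), 3.38 ± 0.40 on day 21 (0.00032) and 3.29 ± 0.40 on day 60 (0.000385).

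Tapbp encodes tapasin, which ties the transporter to empty heavy chains, and lies at chr17:33915899-33929292 on the plus strand. Its level was 89.7 and 91.5 CPM in sham, 397 and 236 CPM on day 1, 386 and 279 CPM on day 3, 1059 and 1015 CPM on day 7, 1117 and 1183 CPM on day 21, and 1017 and 1014 CPM on day 60. The libraries formed 3 levels, with sham lowest, days 1 and 3 between, and days 7, 21 and 60 highest, and these levels did not overlap. Tapbp rose by log2 fold changes of 1.81 ± 0.36 on day 1 (adjusted p = 0.00629), 1.88 ± 0.37 on day 3 (0.00435), 3.52 ± 0.39 on day 7 (0.000146), 3.67 ± 0.39 on day 21 (0.000187) and 3.49 ± 0.39 on day 60 (0.000244). An annotated gene on the opposite strand, Gm19412, shares most of the 23.2% of Tapbp stretches found elsewhere, and exons of the protein-coding gene Zbtb22 overlap those of Tapbp on the same strand. The exons of Tap2 and Psmb8 also overlap opposite-strand transcripts, with 11.6% and 11.9% of stretches shared.

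Psmb8 and Psmb9 encode catalytic subunits that replace their constitutive counterparts in the immunoproteasome. Psmb8, at chr17:34197721-34201454 on the plus strand, had 23.7 and 21.6 CPM in sham, 82.5 and 85.4 CPM on day 1, 121 and 112 CPM on day 3, 120 and 154 CPM on day 7, 119 and 176 CPM on day 21, and 252 and 213 CPM on day 60. Its day 60 libraries were above all others, while days 3, 7 and 21 overlapped. Psmb8 rose by log2 fold changes of 1.89 ± 0.32 on day 1 (adjusted p = 0.00334), 2.36 ± 0.33 on day 3 (0.000878), 2.60 ± 0.33 on day 7 (0.000276), 2.70 ± 0.33 on day 21 (0.00037) and 3.36 ± 0.34 on day 60 (0.000142).

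Psmb9, at chr17:34181987-34187764 on the minus strand, had 9.26 and 12.2 CPM in sham, 12.01 and 15.9 CPM on day 1, 24.2 and 25.3 CPM on day 3, 27.1 and 36.5 CPM on day 7, 40.8 and 53.7 CPM on day 21, and 82.2 and 66.5 CPM on day 60. Day 1 overlapped sham, and each later time lay above both sham libraries and above both libraries of the time before it. The day 1 change of 0.38 ± 0.32 was not called (adjusted p = 0.401). Psmb9 rose by log2 fold changes of 1.20 ± 0.33 on day 3 (adjusted p = 0.019), 1.57 ± 0.33 on day 7 (0.00369), 2.14 ± 0.34 on day 21 (0.00137) and 2.79 ± 0.34 on day 60 (0.000399). The day 3 call ended without sham replicate 1 (adjusted p = 0.126), day 3 replicate 1 (0.0624) or day 3 replicate 2 (0.0708).

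Nlrc5, at chr8:94434356-94527272 on the plus strand, encodes a transactivator that binds class I promoters through an assembly of DNA-binding proteins. It was the least abundant member, with 12 and 8 counts in the sham libraries. Its level was 0.717 and 0.077 CPM in sham, 3.50 and 1.34 CPM on day 1, 3.54 and 0.840 CPM on day 3, 4.23 and 5.51 CPM on day 7, 6.16 and 8.03 CPM on day 21, and 10.9 and 7.13 CPM on day 60. All stroke libraries lay above both sham libraries, although the lower day 3 value was close to the higher sham value. Nlrc5 rose by log2 fold changes of 3.82 ± 1.10 on day 7 (adjusted p = 0.018), 4.36 ± 1.12 on day 21 (0.0143) and 4.71 ± 1.14 on day 60 (0.0121). On day 1 the change was 2.79 ± 1.07 (adjusted p = 0.0728), and 2.98 ± 0.90 with the replicate block (0.0217). On day 3 it was 2.63 ± 1.07 (adjusted p = 0.0849), and 2.73 ± 0.89 with the replicate block (0.0309).

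The Nlrc5 values rest on few sham counts. Without sham replicate 2 the calls on days 7, 21 and 60 ended (adjusted p = 0.0822, 0.0645 and 0.0547), as they did without day 7 replicate 2 (0.06) on day 7 and without day 21 replicate 2 (0.055) on day 21. Without sham replicate 1, the log2 fold changes of Nlrc5 on days 1 and 3 were 4.92 (adjusted p = 0.0325) and 4.77 (0.029).

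Over all members, both stroke libraries lay above both sham libraries for 8 of 10 on day 1 against 33.8% of all genes tested, with H2-D1 and Psmb9 the exceptions. The count was 9 of 10 on day 3 (35.0% of all genes) and on day 7 (40.4%), with H2-D1 the exception, and 10 of 10 on day 21 (38.4%) and day 60 (33.1%). A test for any difference among the 6 groups called 8 of 10 members, where 42.7% of all genes were called, and 10 with the replicate block (60.4%). H2-D1 (adjusted p = 0.425) and Nlrc5 (0.0512) were not called without the block.

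The members reached their highest level at different times. The group means of H2-K1, H2-D1, H2-T23, B2m, Psmb8, Psmb9 and Nlrc5 were highest on day 60, those of Tap2 and Tapbp on day 21, and that of Tap1 on day 7. H2-T23, Psmb8 and Psmb9 ran in time order from sham to day 60, while H2-K1, H2-D1, Nlrc5, Tap1 and Tap2 had lower means on day 3 than on day 1. Few neighbours in these orders differed beyond their spread. Without the block, the step from sham to the lowest stroke time was called for Tap1, Tap2, Tapbp and Psmb8. Between stroke times 2 steps were called, from day 3 to day 7 for H2-T23 (adjusted p = 0.0469) and from day 3 to day 60 for Tapbp (0.0322, a comparison that called 2.27% of all genes higher). The replicate block added the step from sham for H2-K1 (adjusted p = 0.00645), H2-D1 (0.00131), B2m (0.0196) and Nlrc5 (0.0309). It also added the step between days 3 and 1 for Tap1 (0.0433).

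Between consecutive times, the one step with calls without the block was day 7 against day 3, with 3 members higher where 3.06% of all genes were, and 0 lower where 3.22% were. There H2-T23 was higher by a log2 fold change of 1.30 ± 0.33 (adjusted p = 0.0469), Tap1 by 1.70 ± 0.32 (0.0200) and Tapbp by 1.64 ± 0.36 (0.0302). The count was 4 with the replicate block (9.27% of all genes), H2-K1 being added at 1.01 ± 0.29 (adjusted p = 0.0372). The count was 0 without either day 3 library or without either day 7 library, and 1 without sham replicate 1, day 21 replicate 1 or day 21 replicate 2. Day 3 against day 1 gave 0 members higher and 0 lower (3.09% and 0.480% of all genes) and 4 at an unadjusted p under 0.05, and DESeq2 called 0. With the replicate block Tap1 was lower on day 3 than on day 1 by a log2 fold change of -0.87 ± 0.23 (adjusted p = 0.0433), where 2.06% of all genes were lower. Day 21 against day 7 gave 0 calls (0.243% and 0.198% of all genes) with 1 at an unadjusted p under 0.05, and day 60 against day 21 gave 0 calls (0 of all genes) with 0 at an unadjusted p under 0.05, and DESeq2 called 0 members in both.

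Day 60 was also compared with day 1, a comparison added after the levels were seen. There 5 members were higher, where 5.78% of all genes were. H2-T23 was higher by a log2 fold change of 2.75 ± 0.35 (adjusted p = 0.00148), Psmb9 by 2.41 ± 0.34 (0.00236), Tapbp by 1.68 ± 0.36 (0.0191), Psmb8 by 1.47 ± 0.32 (0.0191) and B2m by 1.47 ± 0.40 (0.0484). The count was 2 without day 1 replicate 2 or day 60 replicate 1, and 3 without day 1 replicate 1 or day 60 replicate 2. The B2m call ended without any 1 of the sham, day 1, day 7, day 21 and day 60 libraries. Tap1 and Tap2, at log2 fold changes of 0.62 and 0.47, were not called. The replicate block gave 7 higher (10.2% of all genes), with H2-K1 added at 1.58 ± 0.29 (adjusted p = 0.00479) and H2-D1 at 1.27 ± 0.35 (0.030).

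Levels were compared between genes per kilobase of annotated exon. That length joins the exons of all annotated transcripts, 3381 bases for Psmb8 and 860 for B2m. The transcripts present may be shorter, so the order of the genes depends on this choice. On day 60 B2m stood at 1687 ± 18.3 CPM per kb, against 302 ± 53.9 in sham (SD, n = 2 each), and H2-K1 at 451 ± 153 against 32.9 ± 4.87. Tapbp stood at 280 ± 0.551 CPM per kb on day 60 against 25.0 ± 0.354 in sham, and H2-T23 at 118 ± 19.6 against 12.1 ± 2.18. Tap2, Psmb8, Psmb9 and Tap1 followed at 70.1, 68.8, 20.3 and 17.7 CPM per kb on day 60, against 7.18, 6.70, 2.93 and 0.954 in sham. Nlrc5 was lowest, at 1.06 ± 0.317 CPM per kb on day 60 against 0.0467 ± 0.0533 in sham. On this measure the light chain was the most abundant transcript of the 10 in sham and on day 60 by mean. H2-D1, at 978 ± 1036 against 90.2 ± 99.0 CPM per kb, spread too widely to be placed.

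Across the 12 libraries, the level of each member was correlated with the mean of the other 9, on standardized log2 CPM, as a description. Pearson's r was 0.886 to 0.957 for 9 members and 0.594 for H2-D1. Within the 6 libraries of each replicate number, H2-D1 gave 0.959 in replicate 1 and 0.991 in replicate 2. The points share the sham and stroke groups and the 2 depth classes.

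Among 11433 other genes with a highest group mean of at least 10 CPM, the 8 closest to the mean of the members were Dnajc3, Nr1h3, Aebp1, Inmt, Lgals3bp, Irf7, Trim30a and Enpep, with r of 0.973 to 0.981 over the 12 libraries, where the median gene had 0.065. Irf7, a transcription factor of the interferon response, averaged 322 ± 56.6 CPM on day 60 and 12.96 ± 1.51 CPM in sham (SD, n = 2 each). Dnajc3, an endoplasmic reticulum co-chaperone, averaged 362 ± 8.58 CPM on day 60 and 79.7 ± 2.94 CPM in sham. Inmt, a methyltransferase, averaged 657 ± 314 CPM on day 60 and 0.550 ± 0.270 CPM in sham.

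Other genes of the loading pathway, a list of 13, were called higher for 6 on day 1, 7 on day 3, 8 on day 7, 7 on day 21 and 8 on day 60, where 16.7%, 18.0%, 23.2%, 17.8% and 16.8% of all genes tested were, and 1 was lower from day 3 on (14.2% to 19.8% of all genes). Their median log2 fold changes were 1.21, 1.61, 1.84, 1.48 and 1.64 at these times. Without sham replicate 1 the counts were 2 on day 1 and 4 on day 3. The lower gene was Psme3, of a proteasome activator, named after its values were seen, with a log2 fold change of -1.38 ± 0.33 on day 60 (adjusted p = 0.0122), a call that ended without sham replicate 2 or day 60 replicate 1. Its call ended on day 3 without any 1 of both sham, both day 7 and both day 21 libraries and day 3 replicate 1, on day 7 without any 1 of the sham and day 7 libraries, and on day 21 without day 21 replicate 2. On day 60 the chaperone Hspa5 was higher by a log2 fold change of 2.84 ± 0.39 (adjusted p = 0.000686), the disulfide isomerase Pdia3 of the loading complex by 3.08 ± 0.48 (0.00142), the chaperone Calr by 2.43 ± 0.38 (0.0015) and the peptide trimmer Erap1 by 2.73 ± 0.48 (0.00264).

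Of 14 constitutive proteasome subunits, 4 were called higher on day 1 (16.7% of all genes), 3 on day 3 and 0 at the later times (23.2%, 17.8% and 16.8%), and 1 was lower on days 7 and 21. The 3 of 14 on day 3 lay near the 18.0% of all genes called higher, and the lower calls were below the 19.8% and 15.4% of all genes on days 7 and 21. The counts with the replicate block were 7, 6, 0, 0 and 3 higher, where 23.4%, 24.7%, 29.3%, 24.5% and 22.6% of all genes were, with 5 lower on day 21 (21.8% of all genes). Leaving out single libraries gave 0 to 4 higher on day 1 and 0 to 3 on day 3, the 0 on day 1 coming without either sham or either day 1 library and the 0 on day 3 without either sham library or day 3 replicate 2. The day 1 count was 2 without day 21 replicate 1 or day 60 replicate 1, and the single lower call ended on day 7 without any 1 of the sham and day 7 libraries and on day 21 without any 1 of the sham, day 7 and day 21 libraries. The median log2 fold changes were 0.72, 0.69, -0.21, -0.40 and 0.15 on days 1, 3, 7, 21 and 60. The constitutive catalytic subunits Psmb5, Psmb6 and Psmb7, named for their role and not by their values, had log2 fold changes on day 60 of -0.25 ± 0.31 (adjusted p = 0.581), 0.07 ± 0.33 (0.888) and -0.46 ± 0.33 (0.314). The immunoproteasome members Psmb8 and Psmb9 stood at 3.36 and 2.79 on the same scale. Psmb10, an immunoproteasome catalytic subunit outside the members, rose less by mean. It averaged 113.5 ± 8.98 CPM in sham, 93.0 ± 31.4 CPM on day 1, 121.9 ± 39.0 CPM on day 7 and 239.4 ± 29.9 CPM on day 60 (SD, n = 2 each). The difference between the 2 kinds of subunit was not tested.

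Of 19 other class I and class I-like heavy chains, 13 were tested, and 2, 4, 4, 5 and 5 were called higher on days 1, 3, 7, 21 and 60, where 16.7%, 18.0%, 23.2%, 17.8% and 16.8% of all genes were. The 2 of 13 on day 1 lay near that share. With the replicate block the counts were 6, 8, 8, 9 and 10 higher, where 23.4%, 24.7%, 29.3%, 24.5% and 22.6% of all genes were, with 1 lower on day 3 (19.1% of all genes). In this list H2-Q1, H2-Q2, H2-Q4, H2-Q10, H2-Bl and H2-T10 had at most 149 counts in any replicate 1 library. Their levels are uncertain, as described above, and so are any calls that include them. Leaving out single libraries gave 0 to 3 on day 1, 1 to 4 on day 3 and 3 to 6 on day 60, and day 21 gave 3 without day 21 replicate 1. The lowest counts came without sham replicate 2 on days 3 and 60, and without sham replicate 2 or day 1 replicate 1 on day 1, and the day 3 count was 2 without day 3 replicate 2. On day 60 the neonatal Fc receptor gene Fcgrt was higher by a log2 fold change of 3.24 ± 0.36 (adjusted p = 0.000236), H2-M3 by 3.19 ± 0.44 (0.000792), the iron regulator Hfe by 3.15 ± 0.31 (0.000116) and the lipid presenter Cd1d1 by 2.83 ± 0.66 (0.0106, or 0.0756 without sham replicate 2). Fcgrt, Hfe and Cd1d1 products also pair with beta-2-microglobulin.

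Of 14 genes of interferon receptors and their signalling, 9, 9, 12, 12 and 10 were called higher on days 1, 3, 7, 21 and 60 (16.7%, 18.0%, 23.2%, 17.8% and 16.8% of all genes) and 0 lower (13.9% to 19.8% of all genes), with medians of 1.38, 1.66, 2.32, 2.35 and 2.65. The day 1 count was 4 without day 1 replicate 1 and 5 without sham replicate 1. On day 60 Stat2, a signal transducer of interferon receptors, was higher by a log2 fold change of 3.45 ± 0.63 (adjusted p = 0.0033), the interferon regulatory factor Irf8 by 2.93 ± 0.34 (0.000312) and the feedback inhibitor Socs1 by 2.93 ± 0.46 (0.00156). Of 9 interferon ligands listed, 2 were in the count table. Ifng had 2 and 11 counts on day 21 and 0 in the 10 other libraries. Ifnb1 was highest on day 3, with 13 and 99 counts, against 0 and 0 in sham, and was called at no time.

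Of 11 factors of the class I promoter assembly, 3, 3, 5, 2 and 2 were called higher and 1 lower on days 1, 3, 7, 21 and 60, where 16.7%, 18.0%, 23.2%, 17.8% and 16.8% of all genes were higher. The 2 of 11 on days 21 and 60 lay near those shares. The 1 of 11 lower at each time was below the 13.9% to 19.8% of all genes called lower. The lower call on day 1 ended without sham replicate 1, and there were 2 without either day 3 library. With the replicate block the counts were 4, 5, 5, 5 and 6 higher (23.4%, 24.7%, 29.3%, 24.5% and 22.6% of all genes), and with DESeq2's size factors 2, 2, 3, 2 and 2. Leaving out single libraries gave 1 to 3 higher on day 1 (1 without either sham library, day 1 replicate 1 or day 21 replicate 1), 0 to 3 on day 3 (0 without day 3 replicate 1 and 1 without sham replicate 2), 1 to 5 on day 7 (1 without sham replicate 2 or day 7 replicate 2, and 2 or 3 without sham replicate 1, day 7 replicate 1, either day 21 library or day 60 replicate 1), 1 to 2 on day 21 (1 without sham replicate 2) and 1 to 3 on day 60 (1 without sham replicate 2 or day 60 replicate 1). On day 60 Rela, a kappa B factor, was higher by a log2 fold change of 1.86 ± 0.35 (adjusted p = 0.00409), and Nfyb, a subunit that binds the Y element, was lower by -1.76 ± 0.31 (0.00269). Nfkb1, another kappa B factor, was at 2.25 ± 0.53 (0.0111), or 0.066, 0.0638 and 0.0625 as adjusted p without sham replicate 1, sham replicate 2 and day 60 replicate 1.

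Markers of other cell types also differed between sham and the stroke times, each list with its own course. The summed level of 12 fibroblast markers was 95.0 to 103.5 CPM in sham, 1806 to 2520 CPM on day 1, 5915 to 23170 CPM on day 3, 91870 to 290200 CPM on day 7, 28540 to 54410 CPM on day 21 and 19080 to 30300 CPM on day 60, with 10 of the 12 called higher on day 1 and 11 at each later time, and none at 0 in any library. Microglial markers, a list of 16, summed to 901 to 1039 CPM in sham, 496 to 528 CPM on day 1, 4960 to 7009 CPM on day 3, 6761 to 10640 CPM on day 7, 2865 to 2989 CPM on day 21 and 1257 to 1627 CPM on day 60. Of the microglial markers 0, 9, 11, 6 and 2 were called higher on days 1, 3, 7, 21 and 60, 3 were lower on day 1 and 6 on day 60, and P2ry13 was at 0 in at least 1 library. Both lists were highest on day 7, as was the mean of Tap1, while the means of Tap2 and Tapbp were highest on day 21 and those of the other 7 members on day 60. Monocyte and macrophage markers summed to 45.2 to 292 CPM in sham, 5547 to 6511 CPM on day 7 and 1522 to 2093 CPM on day 60, with 6 to 9 of the 12 measured called higher at each time. Markers of all leukocytes summed to 194 to 231 CPM in sham, 1912 to 2825 CPM on day 7 and 295 to 372 CPM on day 60, with 2, 10, 10, 9 and 4 of 10 called higher at the 5 times. Of all genes tested, 16.7%, 18.0%, 23.2%, 17.8% and 16.8% were called higher at these times. On days 1 and 60, 13.9% and 14.8% were called lower. The 2 of 10 leukocyte markers higher on day 1 and the 2 of 16 microglial markers higher on day 60 lay near those shares.

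Endothelial markers, a list of 14, summed to 6877 to 9234 CPM on day 1 against 1725 to 3247 CPM in sham, with 8 called higher on day 1 (16.7% of all genes). They summed to 801 to 1226 CPM on day 7, where 0 were called higher and 0 lower (23.2% and 19.8% of all genes). Pericyte and smooth muscle markers summed to 2521 to 2934 CPM on day 7 and 1152 to 1480 CPM on day 60, against 599 to 774 CPM in sham. This list of 12 went both ways, with 5 higher and 3 lower on day 7 (23.2% and 19.8% of all genes). On day 60, 4 were higher and 2 lower (16.8% and 14.8% of all genes), so its sum does not describe every marker. T and NK cell markers summed to 9.22 to 11.7 CPM on day 60 against 4.599 to 4.91 CPM in sham, and 12 of the 14 measured, Cd3e and Cd8a among them, were at 0 in at least 1 library. Neutrophil markers summed to 137 to 147 CPM on day 3 against 7.56 to 18.9 CPM in sham, and dendritic and B cell markers to 70.2 to 93.3 CPM on day 7 against 14.6 to 15.4 CPM in sham. Neuronal markers summed to 1078 to 1212 CPM on day 60 against 8813 to 11070 CPM in sham, and oligodendrocyte markers to 1151 to 1501 CPM against 9949 to 10360 CPM. The part of these cell types in the levels of the class I genes was not tested.

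**Figure D4:**
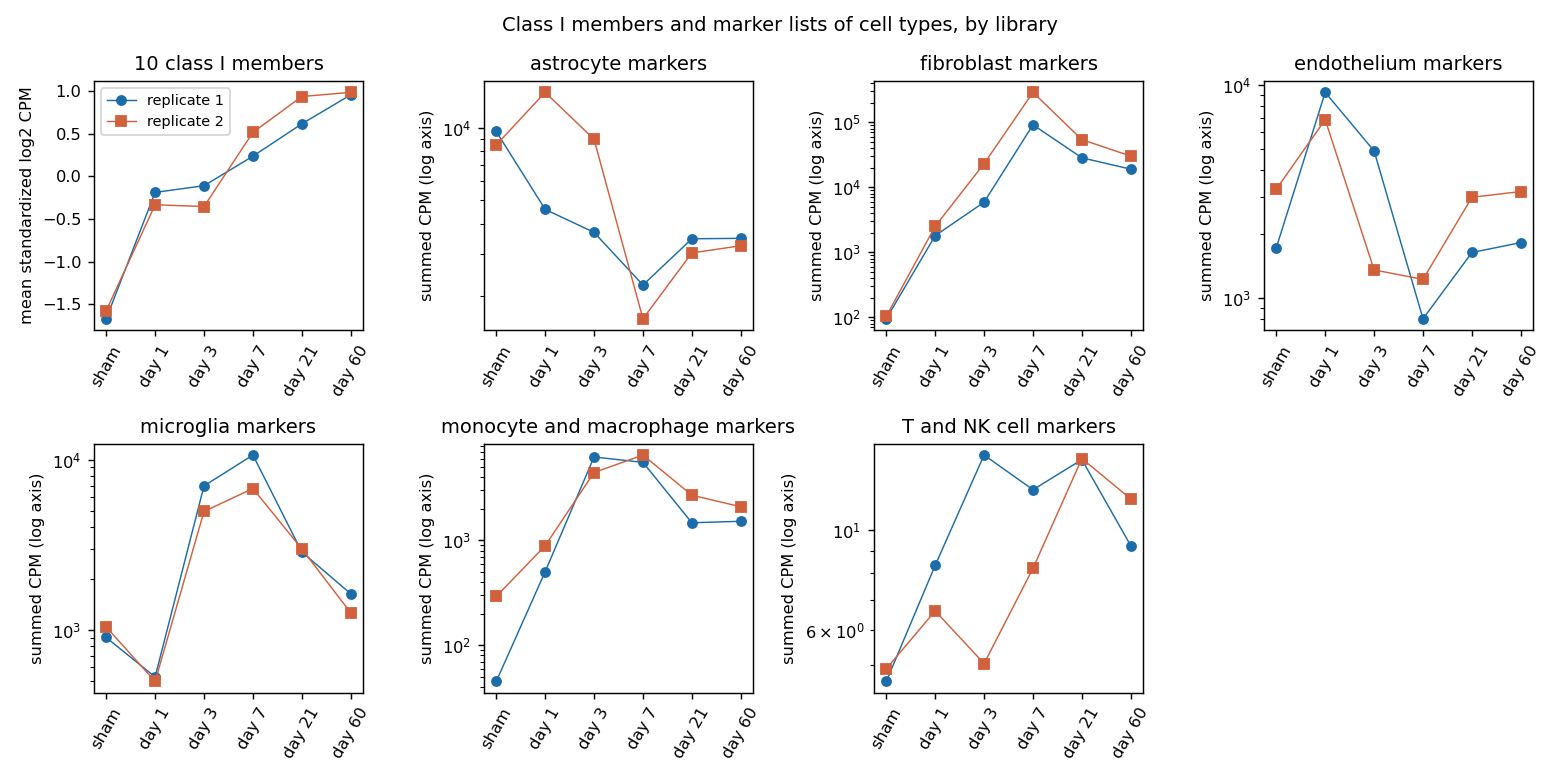
Mean standardized log2 CPM of the 10 members, and summed CPM of 6 marker lists on log axes, in each library from sham through day 60, with circles for replicate 1 and squares for replicate 2. The mean of the members is highest on day 60, fibroblast and microglial markers are highest on day 7 and endothelial markers on day 1.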

How the data were processed

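Libraries of total RNA were grouped by the labels. The authors deposited raw counts per gene symbol, and HTSeq 0.6.1, Bowtie2 2.3.4.2 and the build mm10 are listed in the submitters' processing notes. Annotation, strand setting and the treatment of reads that match several genes are not given in the sources used here. The series table and the sample files were identical in 189288 of 189288 values. Counts were tested in R 4.3.3 with edgeR 4.0.16, as deposited. Genes kept by filterByExpr (minimum count 10) entered 1 quasi-likelihood fit of all 12 libraries with a coefficient for each group and TMM scaling, with 6 residual degrees of freedom. Each stroke time was set against sham and against the preceding time, and p-values were adjusted over 15635 genes within each comparison. The standard error is the log2 fold change divided by the square root of F. CPM use the TMM-scaled totals, and log2 CPM a prior count of 2. The script was tested on simulated data.

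Members and gene lists were chosen with earlier results of these data known. All 10 members were named in each comparison with sham. Of each other list up to 4 genes were named, chosen among the called ones by the size of their change against sham, and the 8 genes closest to the members by Pearson's r. A gene that this rule names is not reported here. Replicate numbers paired the libraries, since the deviations of same-numbered libraries from their group means correlated at 0.319 to 0.713 (15 pairs of groups, each over the threshold of 0.1). No label says what the number marks. Alternatives were this block, DESeq2 1.42.0, its size factors, no filter and leaving out each library. Genes, exons and shared 50-base stretches come from the GENCODE annotation of mm10, and promoters from RefSeq (GRCm38.p6).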

Additional observations from a re-analysis of the deposited data

How the results depend on the processing

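All 50 log2 fold changes of the members against sham were positive in every alternative run. Of 38 calls, 7 were ended by leaving out 1 library, those of H2-K1 at day 1, B2m at days 3 and 7, Psmb9 at day 3 and Nlrc5 at days 7, 21 and 60. DESeq2's test called 3 changes more, H2-K1 at day 3 (adjusted p = 0.0354) and Nlrc5 at days 1 (0.0217) and 3 (0.0305). DESeq2's size factors and no filter on low counts changed no call of a member against sham, although under those size factors the median log2 fold change over all genes shifted by -0.09 to -0.14, so changes against sham are relative to such a shift. With the replicate block, 8 members in place of 5 were called higher at day 1, 10 in place of 6 at day 3, 1 in place of 0 lower at day 3 than at day 1, and 7 in place of 5 higher at day 60 than at day 1. The block added 10 calls against sham and ended none. Leaving out each library in turn gave 4 to 5 members higher at day 1, 5 to 6 at day 3, 7 to 9 at day 7, 8 to 9 at days 21 and 60, 0 to 3 at day 7 against day 3, 2 to 5 at day 60 against day 1, and 8 to 9 that differ among the 6 groups. Where this left a group with 1 library, that library is assumed to vary like the others. The causes of these changes were not tested. Nlrc5, with 12 and 8 counts in sham, and Ifnb1 and Ifng, with 0 counts in both sham libraries, rest on few counts and carry a wide counting error.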

Other observations

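Wide gaps between the replicate numbers were also found outside the class I genes. Over the 15774 genes, 114 were more than 8 times higher in CPM in replicate 2 than in replicate 1 in all 6 groups, and 1 gene was more than 8 times lower, with 0.1 CPM added to each value. The complement gene C4a, which lies in the H2 region, had 22344 to 4690942 counts in replicate 2 libraries and 1 to 18 counts in replicate 1 libraries. Its near-identical copy C4b, in the same region, had 1947 to 4386978 counts in replicate 2 libraries and 22 to 20824 in replicate 1 libraries. Outside that region, C1rb, a copy of the complement protease gene C1ra, had 1249 to 661324 counts in replicate 2 libraries and 0 to 14 in replicate 1 libraries. The interferon-induced GTPase Gbp10 had 7979 to 85415 counts in replicate 2 libraries and 5 to 255 in replicate 1 libraries, and Gbp11 had 1538 to 14328 and 0 to 49 counts in the same order. These genes were looked up after the gap in H2-D1 was seen, and its cause was not tested.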
